A study of Mus musculus with 2 samples.

Results

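The genes of the proteasome were described in chromatin of the mouse cerebral cortex. Members were the protein-coding genes whose GENCODE M21 symbol is Psm followed by a letter from a to g and a number, which gave 49 of 21911 protein-coding genes. The proteasome is the protease that degrades proteins tagged with ubiquitin. Its barrel, the 20S core, is built of outer alpha rings, which gate the entrance, and inner beta rings, which hold the active sites, and the 19S cap recognises, unfolds and feeds in the substrate. Neurons, which do not divide, depend on it for clearing damaged proteins and for turnover at synapses, and immune signals such as interferon gamma exchange the active beta subunits for Psmb8, Psmb9 and Psmb10 to form the immunoproteasome, which makes peptides for antigen presentation. By role the members were 7 alpha ring genes, 7 beta ring genes, 6 ATPases of the cap, 11 other cap subunits, 5 regulators of the core (4 activators and an inhibitor), 7 assembly chaperones, 3 immunoproteasome genes, the testis gene Psma8, the thymus gene Psmb11, and Psme2b, which belonged to none of these groups. The first 6 groups, 43 genes, are called constitutive here.

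Open chromatin was measured by DNase-seq, in which DNase I cuts DNA not packed into nucleosomes, in left cerebral cortex of male B6CASTF1/J mice aged 14 days. B6CASTF1/J is the first-generation hybrid of C57BL/6J and CAST/EiJ, and no treatment or engineered allele was named. The design held 1 group of 2 biological replicates: replicate 1 was labelled as 3 males and replicate 2 as 1 male, and both labels carried the same donor identifier, so the spread between libraries may not be a spread between animals. With 1 group and 2 libraries no test between conditions was possible, and no p-value is given.

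Replicate 1 held 150726 peaks and 380111 footprints, and replicate 2 held 155536 peaks and 379156 footprints. How deeply each was sequenced is not stated in these sources. Peak signal is a cleavage density that the authors gave each peak, and low values were whole multiples of a step of 0.00474 in replicate 1 and 0.00614 in replicate 2. The weakest strongest-promoter peak of a member, that of Psme1, stood at 379 and 315 steps, which would give a counting error of 5.14% and 5.63% if a step were 1 read. Of cell type markers, 7 of 7 neuronal genes had a promoter peak in both libraries, while Cd3e and Cd3d of lymphocytes, Foxn1 of thymic epithelium and Ddx4 and Stra8 of male germ cells had none in either. The other 2 of 4 germ cell markers were open in both libraries, Dazl with signals of 1.81 and 2.26 and Sycp3 with 0.336 and 0.356. Of 3 endothelial markers, Pecam1 alone was open, with 0.374 and 0.541, and Cldn5 and Tek had no promoter peak in either library. A missing peak at a marker was thus not read as absence of its cell type. The tissue is a mixture, so fewer cells with an open promoter and less cutting per cell cannot be told apart in any value below.

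A promoter was taken as 1000 bp each side of any annotated start, and its signal was that of its strongest peak. Of the 49 members, 46 had a promoter peak in both libraries, none in 1 library alone, and 3 in neither, and the same held in the authors' stricter peak list. Among all protein-coding genes 66.7% had a promoter peak in both libraries. Many housekeeping promoters are rich in CpG dinucleotides, and among the 11114 CpG-rich protein-coding genes the share was 95.9%, close to the 93.9% of the members. All 43 constitutive members were open, as were Psmb8, Psmb9 and Psmb10. Of the 80 cytosolic ribosomal protein genes, another set that every cell needs, 77 were open in both libraries.

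Psma8, Psmb11 and Psme2b had no promoter peak in either library. Psma8 is the alpha subunit of the proteasome of male germ cells, and Psmb11 is the beta subunit of cortical thymic epithelium, which presents antigens to developing T cells. No interval under a false discovery rate of 0.05 lay within 1000 bp of the main start of any of the 3 genes. Psma8 held 1 peak in its gene body in replicate 2, with a signal of 0.184 and 47.7 kb from its 5′ end, and none in replicate 1. Psmb11 and Psme2b held no gene body peak in either library. For comparison, the same intervals covered a median of 894 bp of the window of 2001 bp around the main start of members in replicate 1 and 778 bp in replicate 2, against 628 and 532 bp over all protein-coding genes. The main start is the annotated start with the most CpG within 500 bp.

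**Figure D1:**
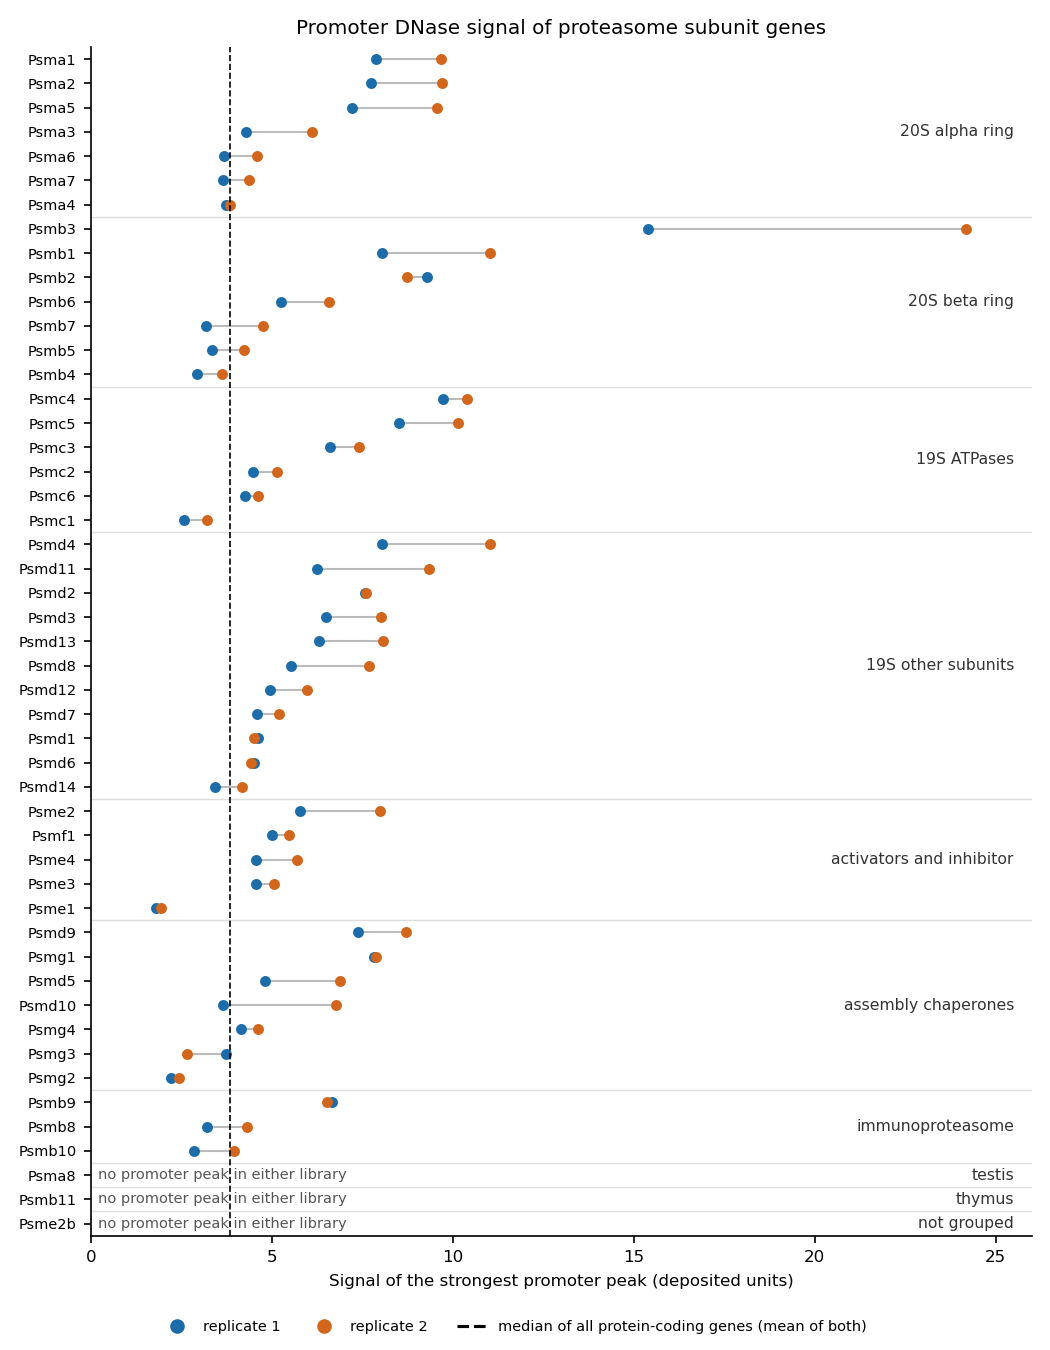
Signal of the strongest promoter peak (horizontal axis, deposited units) of each of the 49 members, grouped by role, in replicate 1 and replicate 2; the dashed line is the median over all genes open in both libraries, 3.84. Psmb3 stands alone at 15.4 and 24.2, Psme1 is the lowest open member, and Psma8, Psmb11 and Psme2b have no value.

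Promoter signals of the open members lay above those of most genes. The median over constitutive members was 4.80 in replicate 1 and 6.10 in replicate 2, against 3.47 and 3.91 over all protein-coding genes open in the same library. Averaged over libraries, 35 of 43 constitutive members (81.4%) were above the median of all genes. CpG-rich genes open in the same library had medians of 4.48 and 5.12, and ribosomal protein genes had the higher medians of 6.61 and 8.72. The constitutive range was wide, 1.86 to 19.8 in means over libraries, and each role group contained both high and low promoters. Medians of these means were 5.20 for the alpha ring, 5.90 for the beta ring, 5.91 for the ATPases, 6.60 for other cap subunits, 5.12 for activators and inhibitor and 5.22 for assembly chaperones. Across the 46 open members the order of signals was similar in the 2 libraries, with a Spearman rho of 0.924 across genes, which are not independent replicates.

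In the alpha ring, whose tails close the entrance to the core, Psma1 had signals of 7.88 in replicate 1 and 9.66 in replicate 2. Psma2 had 7.73 and 9.70, in a peak that also lies near the start of Mrpl32, a mitochondrial ribosomal protein gene. Psma5 had 7.22 and 9.57. These 3 stood apart from the other 4 alpha genes, which lay between 3.65 and 6.10 in both libraries. The lowest were Psma7 with 3.65 and 4.37 and Psma4 with 3.73 and 3.83. Both peaks also lie near the start of a neighbouring gene, AY074887 for Psma4 and Ss18l1 for Psma7. Psma6 had 3.67 and 4.60, and Psma3 had 4.30 and 6.10.

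In the beta ring, Psmb3, a structural subunit without an active site, had the strongest promoter of all members. Its signal was 15.4 in replicate 1 and 24.2 in replicate 2 (19.8 ± 6.21, SD, n = 2), at the 99.9th percentile of all open genes. Psmb1 had 8.05 and 11.0 in a peak near its start and that of Tbp, the TATA-binding protein gene. Psmb2 had 9.30 and 8.73. The ring's 3 catalytic genes were lower: Psmb6, the caspase-like subunit, had 5.24 and 6.57. Psmb7, the trypsin-like subunit, had 3.19 and 4.75, and Psmb5, the chymotrypsin-like subunit and the main target of proteasome inhibitors, had 3.36 and 4.23. Psmb4 was lowest with 2.94 and 3.63. The mean signals of Psmb3 and Psmb4, the highest and lowest of the ring by this same signal, differed by more than the spread between libraries of either gene. The subunits form a ring in equal numbers, and whether promoter signal follows subunit number was not tested.

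In the cap, the ATPases unfold the substrate. Psmc4 led them with 9.72 and 10.4. It was followed by Psmc5 with 8.52 and 10.2, in a peak also near the start of Ftsj3, and Psmc3 with 6.61 and 7.40. Psmc6 had 4.27 and 4.63, and Psmc1 was the lowest with 2.56 and 3.20. Both libraries placed Psmc4 highest and Psmc1 lowest of the 6.

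Among the other cap subunits, Psmd4, a ubiquitin receptor, had the highest signal, 8.06 and 11.0. Psmd11, a lid subunit, had 6.24 and 9.33, and Psmd2, a scaffold of the base, had 7.58 and 7.59. The lowest were Psmd6, a lid subunit, with 4.49 and 4.43 and Psmd14, the deubiquitinase that cuts ubiquitin from the substrate, with 3.43 and 4.16. The other 6 lay between these groups in means over libraries. Of them, Psmd3 had 6.50 and 8.01, Psmd13 had 6.31 and 8.06, and Psmd8 had 5.52 and 7.68. Psmd12 had 4.94 and 5.96, Psmd7 had 4.59 and 5.19, and Psmd1, the largest scaffold of the base, had 4.61 and 4.50. In Psmd1, Psmd2 and Psmd6 the 2 values were nearly equal, while the other 8 had the lower value in replicate 1.

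Psme1 and Psme2 encode the partner chains of the interferon-inducible activator ring, and their values differed. Psme1 had the lowest signal of all open members, 1.79 and 1.93. Psme2 had 5.77 and 7.99, but that peak lies 538 bp upstream of its nearest start and near the start of Rnf31, a ubiquitin ligase gene, and the peak at the RefSeq start of Psme2 itself had 4.02 and 7.08. Psmf1, an inhibitor of the core, had 4.99 and 5.46, and Psme4, the activator used in spermatids and in DNA repair, had 4.56 and 5.69. Psme3, the nuclear activator, had 4.55 and 5.06, although its strongest peak was not the same one in both libraries. It was the only open member whose strongest peaks did not overlap, and in replicate 1 the peak lay 252 bp upstream of the nearest start, against 22 bp in replicate 2.

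Assembly chaperones guide the rings together before they are mature. Psmd9, a chaperone of the cap, had 7.38 and 8.70, and Psmg1, which starts alpha ring assembly, had 7.83 and 7.88. Psmd5, also a cap chaperone, had 4.80 and 6.89. Psmg2, the partner of Psmg1 in the same heterodimer, had only 2.21 and 2.44, in a peak that also lies near the start of Cep76. Psmg4 had 4.16 and 4.61, and its partner Psmg3 had 3.75 and 2.65. The members of the Psmg1 and Psmg2 pair were thus 7.85 ± 0.0373 and 2.33 ± 0.161 (SD, n = 2), further apart than either gene's spread.

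The promoters with the highest signal in the alpha ring, the beta ring and the ATPases are shown because they carry the strongest open sites of the core and the motor. Each line gives the RefSeq window (GRCm38.p6, the mm10 assembly) from 250 bases before to 50 after the start, 5′ to 3′ on the strand of the gene. Capitals mark bases inside a footprint, a stretch protected from cutting, in both libraries. Footprints of both libraries covered 78 bases of the Psma1 window, 127 of the Psmb3 window and 110 of the Psmc4 window.
Psma1, chr7:114276067-114276366, minus strand: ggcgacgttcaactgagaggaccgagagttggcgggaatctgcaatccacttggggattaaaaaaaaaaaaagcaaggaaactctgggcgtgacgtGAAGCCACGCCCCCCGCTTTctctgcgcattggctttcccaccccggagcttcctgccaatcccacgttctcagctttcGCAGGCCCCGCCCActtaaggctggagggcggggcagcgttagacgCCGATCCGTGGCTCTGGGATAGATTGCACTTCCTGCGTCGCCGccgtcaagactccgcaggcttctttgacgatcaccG
Psmb3, chr11:97703184-97703483, plus strand: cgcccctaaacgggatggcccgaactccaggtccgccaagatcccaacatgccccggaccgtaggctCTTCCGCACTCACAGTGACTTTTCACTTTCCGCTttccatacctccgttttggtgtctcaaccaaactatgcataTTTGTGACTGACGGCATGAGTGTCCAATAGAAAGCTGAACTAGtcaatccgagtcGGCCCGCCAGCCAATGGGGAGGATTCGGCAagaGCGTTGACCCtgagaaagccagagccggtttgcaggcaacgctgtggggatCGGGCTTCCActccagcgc
Psmc4, chr7:28050043-28050342, minus strand: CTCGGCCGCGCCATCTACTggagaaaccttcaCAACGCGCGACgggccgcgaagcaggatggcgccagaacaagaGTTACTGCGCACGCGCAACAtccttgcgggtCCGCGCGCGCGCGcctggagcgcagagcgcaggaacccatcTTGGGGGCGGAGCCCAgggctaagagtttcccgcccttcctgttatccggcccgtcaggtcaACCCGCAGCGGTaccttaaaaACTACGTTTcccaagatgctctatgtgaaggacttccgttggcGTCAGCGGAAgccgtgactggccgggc
In Psmb3, CCAAT occurs in 2 separate footprints found in both libraries, and a further footprint holds the interferon response word GAAANNGAA on the other strand. The Psmc4 window held 8 footprints in replicate 1 and 9 in replicate 2.

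The immunoproteasome genes had open chromatin at levels near those of the subunits they replace. Psmb5 had 3.36 and 4.23, against 3.22 and 4.30 for its replacement Psmb8. Psmb6 had 5.24 and 6.57, against 6.67 and 6.54 for Psmb9. Psmb7 had 3.19 and 4.75, against 2.85 and 3.96 for Psmb10. The ranges over the 2 libraries overlapped in each of the 3 pairs, but such a range also holds the general shift between libraries. Compared within a library, Psmb10 was below Psmb7 in both, and Psmb9 was above Psmb6 in replicate 1 and near it in replicate 2. As a group the constitutive members had a median of 5.23 in means over libraries, against 3.76 for Psmb8, Psmb9 and Psmb10, with Psma8 closed. Of the 43 constitutive members, 17 were above the highest of these 3 genes and 5 were below the lowest.

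Where these peaks lay differed from the constitutive genes. Among constitutive members with a RefSeq promoter window of 300 bp, 35 of 36 (97.2%) had a peak overlapping the window in both libraries, against 60.3% of all protein-coding genes with such a window. In 33 of the 35 that peak was the strongest promoter peak of the gene, as it was in 84.1% of all genes with a window peak in both libraries. For Psmb8 the peak in the RefSeq window had signals of only 0.384 and 0.522, 12.1% of its strongest peak. The strongest peak was centred 534 bp upstream of the RefSeq start, at the outermost GENCODE start, in the gap that follows Tap1. For Psmb10 the peak in the RefSeq window had 0.540 and 0.829, 20.1% of the strongest, which was centred 1291 bp downstream of the RefSeq start at an internal annotated start. Among all protein-coding genes with a window peak in both libraries, 2.06% had a window peak under 25% of their strongest promoter peak. With the RefSeq window in place of any annotated start, the median of Psmb8, Psmb9 and Psmb10 was 0.685, against 5.23 for constitutive members and 4.20 for all genes. The values of Psmb8 and Psmb10 set beside Psmb5 and Psmb7 above thus belong to the strongest peak at any annotated start and not to the RefSeq start.

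Psmb9 differed from both, since its RefSeq window held the strongest peak. That peak, with 6.67 and 6.54, is the same as that of Tap1, a subunit of the transporter that carries proteasome products into the endoplasmic reticulum, which is transcribed in the opposite direction. The neighbouring promoter of Tap2, the second transporter subunit, had 3.30 and 2.56. The signal of a peak shared by Psmb9 and Tap1 cannot be assigned to either gene.

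**Figure D2:**
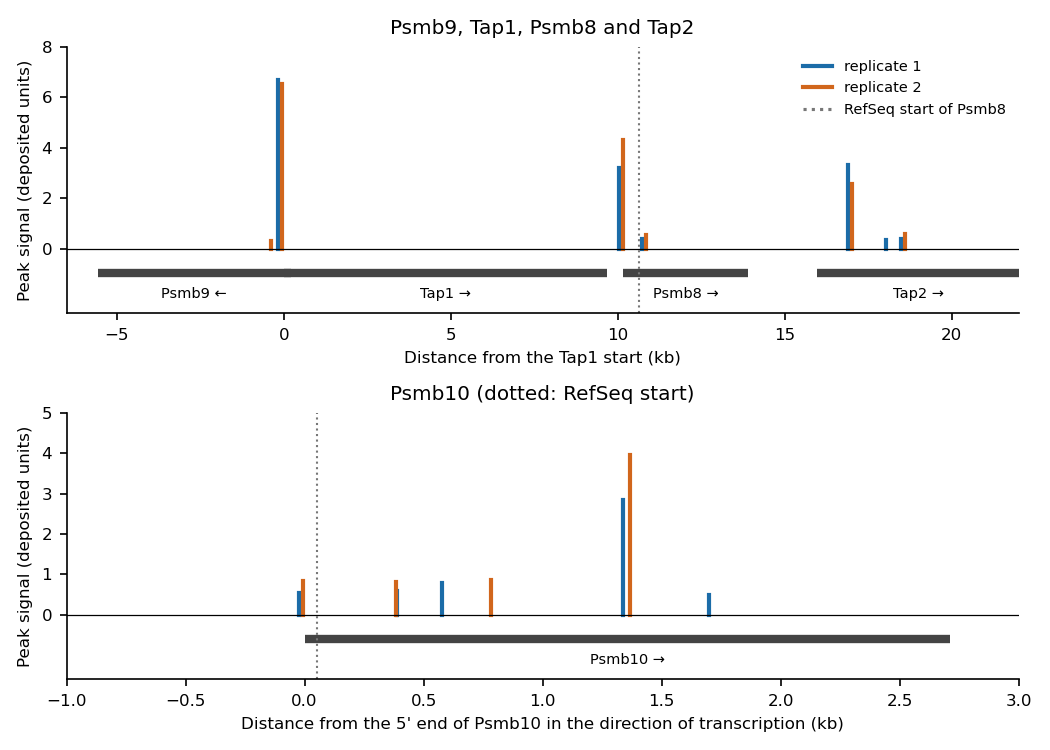
Peak signal (vertical axis, deposited units) of replicate 1 and replicate 2 by position of the peak centre: above, along Psmb9, Tap1, Psmb8 and Tap2 in kb from the Tap1 start; below, along Psmb10 in kb from its 5′ end; bars under the axis are genes, arrows give the direction of transcription and dotted lines mark RefSeq starts. The tall peaks of Psmb8 and Psmb10 stand away from the dotted lines, beside which the peaks are low.

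The open sequences of the 3 immunoproteasome genes are shown because the open site is not where the reference start places it in Psmb8 and Psmb10. For Psmb9 the line is the RefSeq window, and for Psmb8 and Psmb10 it is the strongest promoter peak of replicate 1 in mm10. Capitals again mark bases in footprints of both libraries.
Psmb9, chr17:34187281-34187580, minus strand: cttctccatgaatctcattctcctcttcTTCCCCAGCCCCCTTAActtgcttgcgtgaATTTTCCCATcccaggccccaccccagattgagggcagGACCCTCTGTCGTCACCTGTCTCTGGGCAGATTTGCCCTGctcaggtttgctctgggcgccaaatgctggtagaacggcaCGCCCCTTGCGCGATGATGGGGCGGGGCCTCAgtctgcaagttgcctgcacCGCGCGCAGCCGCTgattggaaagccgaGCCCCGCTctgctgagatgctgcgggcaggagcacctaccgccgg
Psmb8, chr17:34197561-34197760, plus strand: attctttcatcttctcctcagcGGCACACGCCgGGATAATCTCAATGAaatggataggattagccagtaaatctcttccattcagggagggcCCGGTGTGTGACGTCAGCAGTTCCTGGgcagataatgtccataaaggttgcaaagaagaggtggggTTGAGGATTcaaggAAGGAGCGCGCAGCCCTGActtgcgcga
Psmb10, chr8:105936981-105937220, minus strand: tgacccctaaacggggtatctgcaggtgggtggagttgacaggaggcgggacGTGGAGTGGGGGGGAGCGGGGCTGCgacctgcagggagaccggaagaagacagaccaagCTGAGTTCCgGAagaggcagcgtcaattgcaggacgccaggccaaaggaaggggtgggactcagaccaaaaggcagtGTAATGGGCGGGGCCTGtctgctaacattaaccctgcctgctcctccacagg
The Psmb8 peak holds the CREB word TGACGTCA in a footprint of both libraries, and the Psmb10 peak holds the Sp and Klf word GGGCGG in footprints of both. The Psmb10 peak also holds TGACNNNGC, the word of Nfe2l1 and Nfe2l2, with no base in footprints of both libraries. The ETS word CCGGAAG has a copy in the Psmb10 peak with no base in footprints of both libraries. A further copy lies at the edge of a footprint of replicate 1, with 5 of its 7 letters inside. A footprint of replicate 2 covers 4 letters, of which 2 are the same. The capitals at the first letters of this copy come from another footprint of replicate 2. The Psmb9 window holds GGGCGG in a footprint of both libraries. Neither the NF-kB word GGANTTTCC nor the interferon response word was in a footprint of the strongest peak of these 3 genes in both libraries. This says only that these letters are not in those footprints. Psmb8 does hold the interferon response word from 250 bp before to 50 bp after its main start, outside its strongest peak.

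Other antigen processing genes were open too. Tapbp, which loads peptides, had 7.18 and 9.29, and B2m, the light chain of MHC class I, had 5.81 and 6.59. Irf1, a transcription factor of the interferon response, had 3.44 and 3.50. Erap1, a peptide-trimming protease, had 1.07 and 1.14, and Nlrc5, an activator of MHC class I genes, had 0.895 and 0.934. The median over all protein-coding genes open in both libraries was 3.84 in means over libraries, so that Tapbp and B2m stood above it and Irf1, Erap1 and Nlrc5 below it. Beside these values, the microglial markers Cx3cr1 and Csf1r had promoter peaks in both libraries, with 0.601 and 0.743 for Cx3cr1 and 0.748 and 0.651 for Csf1r, while P2ry12 had none in replicate 1 and 0.547 in replicate 2. Of the lymphocyte markers Cd3e, Cd3d and Cd2, none had a promoter peak in replicate 1 and Cd2 alone had one in replicate 2, with 0.565. The part of any cell type in the signals of Psmb8, Psmb9 and Psmb10 was not tested.

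Partners of the proteasome outside the symbol rule were open in all 16 cases found. The highest was Rad23b, a shuttle that carries ubiquitinated proteins to the cap, with 14.1 and 15.2. Nfe2l1, the factor that drives proteasome genes when the protease is inhibited, had 8.75 and 15.6. Vcp, the segregase that extracts substrates, had 9.31 and 14.1. The median over these partners was 5.08 in means over libraries, near the 5.22 of the members.

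Some member promoters lie near the starts of neighbouring genes. The strongest peak of 12 of the 46 open members lay within 1000 bp of a start of another protein-coding gene in both libraries (26.1%, against 18.5% of all genes open in both), and 11 of these members are constitutive. They include Psmc2 with Dnajc2, Psmd13 with Sirt3 and Psmd10 with Atg4a. Without such peaks the median over the remaining 32 constitutive members was 5.34, against 5.23 for all 43.

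**Figure D3:**
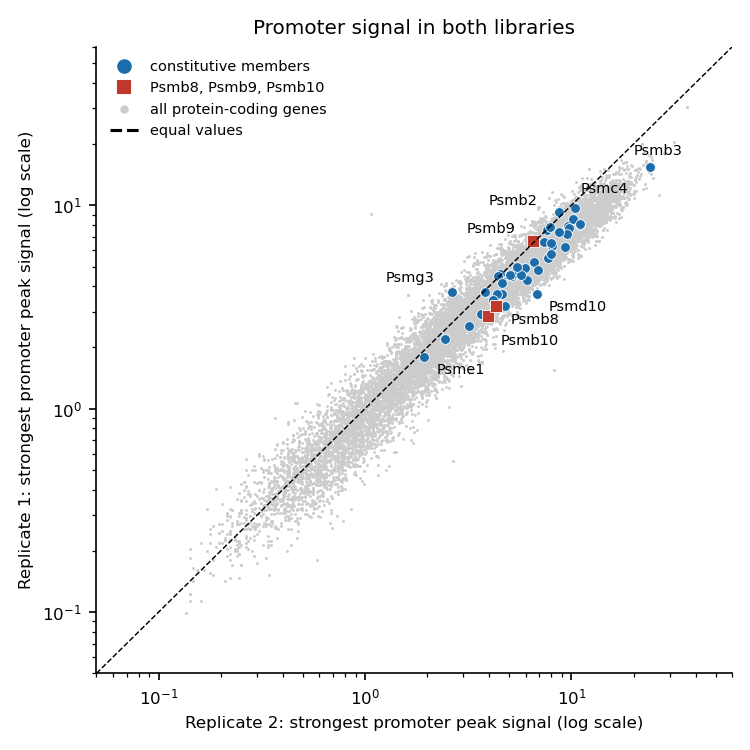
Strongest promoter peak signal in replicate 1 (vertical) against replicate 2 (horizontal), both on log axes, for constitutive members, for Psmb8, Psmb9 and Psmb10, and for all protein-coding genes open in both libraries; the dashed line marks equal values. Most members lie below the line, Psmg3 lies above it, and Psmd10 lies furthest below it.

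Between the libraries, 41 of the 46 open members (89.1%) had the lower signal in replicate 1, as did 74.7% of all open genes. The median log2 ratio of replicate 1 over replicate 2 was -0.29 over members, against -0.22 over all genes, so that members were lower by 0.06 on the log2 scale once the shift of all genes was removed. The SD of the ratio among members was 0.23, which is a spread of single genes and does not measure how certain that remainder is. Psmd10, the X-linked gene of a cap chaperone also known as gankyrin, had the ratio furthest below 0, -0.89, from signals of 3.66 and 6.78. Psmb3 had -0.65, and Psmb7 and Psmd11 had -0.58 each. On the other side Psmg3 had 0.50, and Psmb2 with 0.09, Psmd1 with 0.04 and Psmb9 with 0.03 were near 0. The labels give no cause for such differences, and with 1 library of each kind they are not effects of a condition.

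The promoter peaks of members were about as wide as those of other genes, and most were centred near a start. Their median width was 200 bp in both libraries, against 220 and 200 bp over all genes, and the centre lay within 100 bp of an annotated start in 40 of 46 members (87.0%) in each library, against 66.3% of all open genes in replicate 1 and 65.1% in replicate 2. The median position of the centre was 24.5 bp upstream of the start. By sequence, 38 of 43 constitutive members (88.4%) had a CpG-rich main start, against 50.7% of all protein-coding genes. Only 1 of Psmb8, Psmb9, Psmb10 and Psma8 did, the shared start of Psmb9. Compared with CpG-rich genes, the constitutive CpG-rich members had a median signal of 5.34, against 4.86.

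Members carried little open chromatin within the gene. The median was 1 peak per gene body in each library, against 2 over all protein-coding genes, but members are also shorter, with a median length of 11.8 kb against 17.4 kb. Peaks away from any protein-coding start were present in 24.5% of members in replicate 1 and 28.6% in replicate 2, against 49.3% and 49.6% of all genes. The most gene body peaks were in Psmd9, with 7 and 8. Its open promoter lies 58.8 kb inside the annotated gene, whose outermost start belongs to a longer transcript model. Psmb7 had 7 in each library, Psma6 had 5 in each and Psma2 had 4 in each. In Psmb7 the 6 peaks away from the start were weak, between 0.426 and 1.05. In Psma2 the strongest internal peak, 6.82 and 7.86, lies near the start of AW209491.

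Psmc2, an ATPase of the cap, held a second open site stronger than its promoter. Its promoter had 4.48 and 5.14, and a peak 1438 bp from the 5′ end had 5.09 in replicate 1 and 5.47 in replicate 2. No protein-coding GENCODE start lies within 1000 bp of that peak, while RefSeq places a second start of Psmc2 inside it. The sequence of the peak in replicate 1 is shown because the annotations differ on it, and capitals mark bases in footprints of both libraries.
Psmc2, chr5:21786621-21786820, plus strand: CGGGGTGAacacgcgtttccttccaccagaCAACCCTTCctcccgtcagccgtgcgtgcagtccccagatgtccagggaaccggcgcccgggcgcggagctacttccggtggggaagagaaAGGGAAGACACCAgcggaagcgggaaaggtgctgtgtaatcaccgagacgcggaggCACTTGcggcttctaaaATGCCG
The peak held 5 footprints in each library. Psmb1 has a similar arrangement within its annotated starts, with an internal peak of 6.00 and 8.06 centred 1420 bp from its 5′ end beside its promoter of 8.05 and 11.0.

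All 46 open members had a footprint in the strongest promoter peak in both libraries, and so did 97.6% of all genes open in both. The member peaks held 211 footprints in replicate 1 and 221 in replicate 2, and 160 of those in replicate 1 (75.8%) overlapped one in replicate 2. The median was 5 per member in each library, against 5 and 4 over all genes. The most were in Psmc4, with 5 in replicate 1 and 9 in replicate 2, in Psmd8, with 6 and 7, and in Psma2, with 6 and 7. Psme1 had 5 in each library, but 1 alone was shared, and Psme3 shared none because its peaks differ. Footprints were densest just before the start. In the 50 bp before the start there were 1.33 footprints per member in replicate 1 and 1.46 in replicate 2, against 1.04 and 0.999 per gene over all genes.

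**Figure D4:**
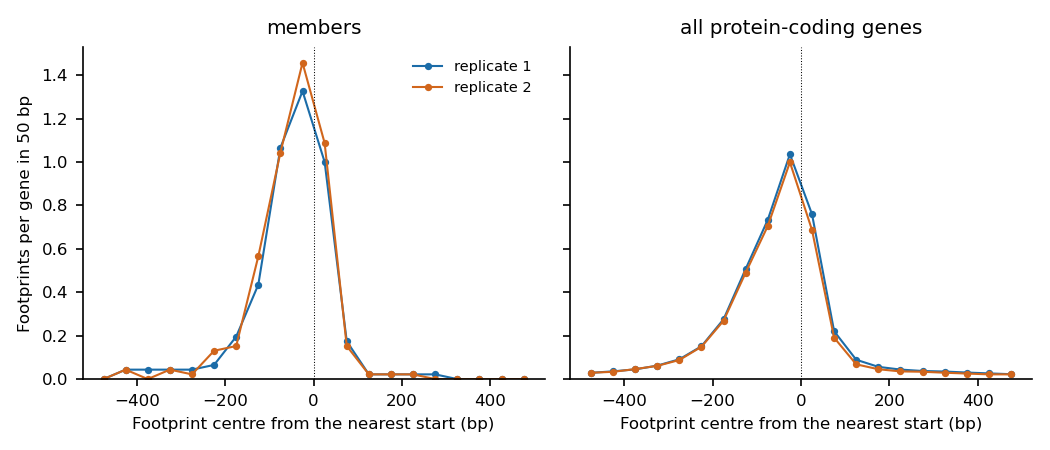
Footprints per gene in bins of 50 bp (vertical axis) by distance of the footprint centre from the nearest annotated start (horizontal axis, bp, negative upstream), in the strongest promoter peaks of members (left) and of all protein-coding genes (right), for replicate 1 and replicate 2. In both panels the highest point is the bin just upstream of the start, at 1.33 and 1.46 in members and 1.04 and 0.999 in all genes.

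Short words known as binding sites were searched on both strands, first in the window from 250 bp before to 50 bp after the main start. The ETS word CCGGAAG, read by the ETS family, was in 16 of 49 members (32.7%), against 12% of all protein-coding genes and 18.9% of CpG-rich genes. The YY1 word AAGATGGC was in 9 members (18.4%), against 3.67% of all genes and 5.56% of CpG-rich genes. The word TGACNNNGC is the core bound by Nfe2l1 and Nfe2l2, which control proteasome genes under stress. It was in 12 members (24.5%), all constitutive, against 13.0% of all genes and 14.9% of CpG-rich genes. The strongest peak of Psmb10 holds this word too, outside the window of its main start. The Sp and Klf word GGGCGG was in 59.2% of members, against 49.6% of all genes and 76.1% of CpG-rich genes. CCAAT was in 32.7% of members, against 36.4% of all genes and 33.7% of CpG-rich genes. The share of members with the YY1 word depended on the start chosen: with the 5′ end of the gene it was 5 of 49 (10.2%), against 2.91% of all genes, and in RefSeq windows it was 3 of 41 (7.32%), against 3.64%. The share with the ETS word was 32.7% and 34.1% in those windows, against 10.8% and 13.4% of all genes. A match of letters is a description of sequence and shows no binding.

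**Figure D5:**
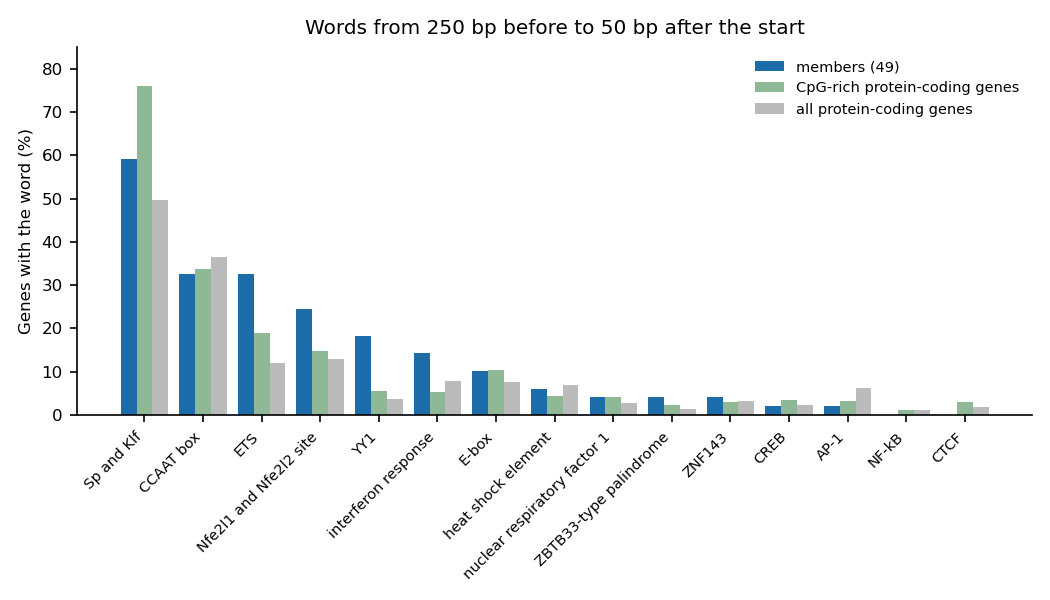
Share of genes (vertical axis, %) with each of 15 words from 250 bp before to 50 bp after the main start, for the 49 members, CpG-rich protein-coding genes and all protein-coding genes. Of the words in more than 5 members, the members are above both other sets for ETS, the Nfe2l1 and Nfe2l2 site, YY1 and the interferon response word, and below CpG-rich genes for Sp and Klf.

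Footprints were then searched with 5 bp added on each side, so that a word at an edge counts although some of its letters lie outside. In these, 36 of the 46 open members had at least 1 of the 15 words in both libraries, against 62% of all genes open in both. GGGCGG was in footprints of 23 members (50%), above the 45.3% of all genes open in both but below the 53.1% of CpG-rich ones. CCGGAAG was in those of 7 members (15.2%), against 6.67% of all genes, and these were Psmb10, Psmc1, Psmc6, Psmd14, Psme2, Psme4 and Psmg1. CCAAT was in those of 6 members (13.0%), against 14.5% of all genes and 16.0% of CpG-rich ones. TGACNNNGC was in those of Psmb5, Psmb6 and Psmd9 (6.52%), against 4.43% of all genes and 5.12% of CpG-rich ones. Several further words were each in those of 2 members (4.35%). The nuclear respiratory factor 1 word CGCATGCG was in Psma2 and Psmg1, against 3.28% of all genes and 3.92% of CpG-rich ones. The CREB word TGACGTCA was in Psmb2 and Psmb8, against 3.09% and 3.54%. The interferon response word was in Psmb3 and Psmb4, against 0.725% of all genes and 0.807% of CpG-rich ones. It was in no such footprint of the immunoproteasome genes. Only footprints of the strongest promoter peak were searched. Psmb8 holds this word in the window of its main start, which lies 649 bp from the 5′ end and outside that peak. The palindrome CTCGCGAG was in Psmb2 and Psmd5, against 0.958% of all genes and 1.21% of CpG-rich ones. AAGATGGC was in Psmc5 and Psmd7, against 1.65% and 2.03%. The AP-1 word TGANTCA, the NF-kB word GGANTTTCC and the CTCF word AGGGGGCGC were in no member footprint in both libraries, against 0.349%, 0.233% and 2.16% of all genes. With no bases added, 29 members (63.0%) had a word wholly inside a footprint in both libraries, against 47.7% of all genes. The ETS word was then in 0 members, against 2.69%. TGACNNNGC was in Psmd9 alone, AAGATGGC in Psmd7 alone and CTCGCGAG in Psmd5 alone. The interferon response word was still in Psmb3 and Psmb4. GGGCGG was in 21 members (45.7%), against 36.0% of all genes, and the share of CpG-rich genes is not given here.

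Footprints of the catalytic genes and of the ETS and YY1 words are shown so that the place of each word in its footprint can be read. Each line is the footprint of replicate 1, which overlaps one of replicate 2, with 5 bp on each side, in mm10 and on the strand of the gene, with the word in capitals. The first 5 and last 5 bases of a line thus lie outside the footprint of replicate 1.
Site of Nfe2l1 and Nfe2l2 in Psmb5, chr14:54618021-54618046, minus strand: gttgTGACGTCGCggcgttgccagtc
Site of Nfe2l1 and Nfe2l2 in Psmb6, chr11:70525348-70525379, plus strand: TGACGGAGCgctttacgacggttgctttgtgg
Site of Nfe2l1 and Nfe2l2 in Psmd9, chr5:123228151-123228187, plus strand: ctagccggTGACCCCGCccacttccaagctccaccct
ETS in Psmc6, chr14:45329721-45329747, plus strand: cagCCGGAAGgggcggagccagtcacg
ETS in Psmg1, chr16:95991022-95991042, minus strand: ttctcgcggcggaCCGGAAGc
ETS in Psme4, chr11:30771703-30771731, plus strand: ccgcctccgtggccccgccCCGGAAGtga
ETS in Psmb10, chr8:105937093-105937115, minus strand: accaagctgagttCCGGAAGagg
YY1 in Psmc5, chr11:106256185-106256208, plus strand: gggAAGATGGCgcttgatgggcca
YY1 in Psmd7, chr8:107588518-107588541, minus strand: ttctcAAGATGGCgcccctggcga
CTCGCGAG palindrome in Psmd5, chr2:34870970-34870999, minus strand: gctccgtaagatCTCGCGAGattcagagag
CREB in Psmb8, chr17:34197642-34197684, plus strand: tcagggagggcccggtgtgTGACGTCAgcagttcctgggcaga
The words of Psmd9, Psmd7, Psmd5 and Psmb8 lie wholly inside the footprints of both libraries. In Psmb6 only 4 of the 9 letters of TGACNNNGC lie inside in each library, and in Psmb5 8 lie inside in replicate 1 and 9 in replicate 2. Of the 7 ETS letters, Psmg1 has 3 inside in replicate 1 and 5 in replicate 2, while Psmc6 and Psme4 have 5 and 7. The ETS and Sp words adjoin in Psmc6 and overlap by letters in Psme4, so a single stretch can count for both. In Psmb2 the CCAAT and CREB words lie in a single footprint found in both libraries, and the CTCGCGAG word lies across its edge.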

How the data were processed

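DNase-seq of left cerebral cortex from 2 libraries was used; the members and all gene lists and words were chosen with earlier results of these data known. Per the notes deposited with the files, the authors made each file from the library's own mm10 alignments without pooling. Aligner and callers: not given in the sources used here. The deposited signal is the cleavage density of a peak; its scaling is not stated, so levels across libraries are read beside the median shift of all genes. Intervals were deposited with a false discovery rate (q-value) of local cleavage, up to 0.05. In the footprint files the deposited p-value column held 0.01 throughout and positions alone were used. The 2 parental alleles were not separated, and sequence is that of the C57BL/6J reference.

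Gene models were GENCODE M21 (21911 protein-coding symbols on 21 chromosomes; models that share a symbol were merged), and sequence was GRCm38.p6 from RefSeq. The larger of the 2 peak lists of each library was used. A promoter was 1000 bp each side of any start, and a peak counted with 1 bp of overlap. Gene body peaks were placed by centre. Footprints counted when they overlapped the strongest promoter peak by 1 bp, and were extended by 5 bp for words. A CpG-rich start had at least 50% GC and an observed over expected CpG ratio of at least 0.6 within 500 bp. The main start, the RefSeq windows (41 of 49 members matched) and the alternatives that use them were chosen after values were seen.

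Named were Psmb8 to Psmb11, Psma8, members without a peak, the 3 highest and 2 lowest of each role, and the 4 extremes of library ratio, gene body peaks and footprints. Of 17 partner symbols 16 were found. Some genes of the antigen processing and marker lists are not reported here. Alternatives were the stricter list, windows of 500 and 2500 bp, the 5′ end alone, the stronger 50% of peaks, overlap, centring, flanks, footprint rules and each library alone. The functions were tested on simulated data. Python 3.11.15, NumPy 2.4.6, pandas 2.3.3 and matplotlib 3.10.9 were used.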

Additional observations from a re-analysis of the deposited data

How the results depend on the processing

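Of 58 alternative values, 52 stayed within the limit set for their result. The limit was the spread between libraries for medians, 1.5 times for counts and a fixed tolerance for the log2 ratio. That spread came from the same 2 libraries, so the medians of each library alone were nearly bound to stay within it. A change of direction could be read for the log2 ratio alone, which kept its sign. Without replicate 1 or replicate 2, the median promoter signal was 4.80 to 6.10 for constitutive members and 3.22 to 4.30 for Psmb8, Psmb9 and Psmb10, the open members stayed at 46, and 39 members carried a word in a footprint of the library left. With the 5′ end of the gene alone 42 members were open, since the open starts of Psma6, Psmd5, Psmd9 and Psmf1 lie inside the annotated gene. The median log2 ratio of replicate 1 over replicate 2 was -0.06 once centred on all protein-coding genes, and the median of gene body peaks was 4 with 10000 bp added on each side and 0 with peaks near starts left out. In the 300 bp RefSeq windows, chosen after values were seen, the median of Psmb8, Psmb9 and Psmb10 was 0.685, because the strongest peaks of Psmb8 and Psmb10 lie outside them. Members with the YY1 word numbered 5 at the 5′ end of the gene and 3 in the RefSeq windows, against 9 at the main start. Members with a word in a footprint numbered 29 without extension and 42 with 10 bp. The ratio between libraries has no value with either left out. No paired analysis was possible because the design holds 1 group. Depth is unknown, and 2 libraries limit every spread given.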
